A study of Mus musculus with 8 samples.

Results

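The Wnt pathway genes of the array were followed through knockdown (KD) of the acetyltransferase Tip60 and the deacetylase Hdac6 in mouse embryonic stem cells (ESCs). The rule for the members used gene names and no measured value, though it was written with earlier results of these data known. The members are all array features for a Wnt, Fzd, Sfrp or Dkk gene with a number in its name, plus Axin1, Axin2, Lef1, Tcf7, Tcf7l2, Ctnnb1, Apc, Gsk3a, Gsk3b, Lrp5, Lrp6, Nkd1, Porcn, Dvl1, Dvl2 and Dvl3. This gave 53 genes on 71 features, out of 30175 gene names on 39429 features. The cells were labelled E14 ESCs, grown without feeders in serum medium with LIF and infected with lentivirus carrying short hairpin RNAs 72 hours before harvest. The 4 groups were control KD (a hairpin against GFP), Tip60 KD, Hdac6 KD and double KD (both genes), each with 2 arrays, A and B. One hairpin per gene was used according to the methods, so an effect of the hairpin itself cannot be told apart from an effect of losing its target. RNA of each sample was labelled with Cy3 and hybridised to a 1-colour Agilent array, and the small number of arrays limits the precision of every value.

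Wnt proteins are secreted lipid-modified ligands that bind Frizzled (Fzd) receptors together with the co-receptors Lrp5 and Lrp6. Without ligand, a complex built on Axin and Apc lets the kinases Gsk3a and Gsk3b mark beta-catenin (Ctnnb1) for destruction. With ligand, Dishevelled (Dvl) proteins interrupt this complex, and beta-catenin accumulates and works with the Tcf and Lef factors on DNA. Several of the secreted Sfrp and Dkk proteins block the ligands or the co-receptors. In mouse ESCs, activity of this pathway is known to favour self-renewal.

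RefSeq promoter windows of 300 bases around the start (build GRCm38.p6) were at hand for 36 of the 53 genes, 45 windows in all. The windows of 3 genes that changed are shown with every CG dinucleotide in capitals, to let their base composition be seen beside the array values given further on. Sfrp5 (chr19:42202203-42202502, minus strand) and Fzd10 (chr5:128600856-128601155, plus strand) rose upon Tip60 KD, and Fzd7 (chr1:59481897-59482196, plus strand) fell.
Sfrp5: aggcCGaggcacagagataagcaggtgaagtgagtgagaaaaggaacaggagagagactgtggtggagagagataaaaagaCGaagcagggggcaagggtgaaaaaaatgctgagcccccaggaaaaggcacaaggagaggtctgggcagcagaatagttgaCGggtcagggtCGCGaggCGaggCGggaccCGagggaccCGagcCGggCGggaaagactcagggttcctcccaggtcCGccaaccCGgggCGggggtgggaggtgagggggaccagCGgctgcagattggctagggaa
Fzd10: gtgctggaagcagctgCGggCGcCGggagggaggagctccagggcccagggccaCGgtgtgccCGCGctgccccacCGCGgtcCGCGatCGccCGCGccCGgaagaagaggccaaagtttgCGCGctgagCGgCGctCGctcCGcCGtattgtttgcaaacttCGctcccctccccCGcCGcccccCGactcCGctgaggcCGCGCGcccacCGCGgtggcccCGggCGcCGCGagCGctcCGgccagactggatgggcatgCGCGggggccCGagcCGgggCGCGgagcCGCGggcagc
Fzd7: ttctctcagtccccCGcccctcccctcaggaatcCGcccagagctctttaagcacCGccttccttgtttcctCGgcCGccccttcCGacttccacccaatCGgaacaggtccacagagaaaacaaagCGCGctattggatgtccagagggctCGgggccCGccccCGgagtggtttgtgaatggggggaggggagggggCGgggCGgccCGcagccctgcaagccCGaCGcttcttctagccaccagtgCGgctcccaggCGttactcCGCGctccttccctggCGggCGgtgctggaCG
These windows held 15, 45 and 24 CG dinucleotides, and 61.3%, 77.7% and 66.7% G or C. Over the 45 windows the medians were 24 CG dinucleotides and 67.3% G or C. Over all 32851 windows of the table they were 7 and 52.7%. The Tcf and Lef core motif CTTTGAT, searched on both strands, was found in 2 of the 45 windows (4.44%), 1 of Wnt5b and 1 of Wnt11, and in 3.73% of all windows. A match of letters is a description of the window and not a binding site.

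The features of Lrp6, Gsk3b and Fzd5 disagreed with each other in direction upon Tip60 KD. For Lrp6 and Gsk3b, where features of opposite direction were each called, the first 30 bases of their 60-base oligos are therefore given, with positions in build mm9. Lrp6 had 2 oligos on chromosome 6, named here by their start position, and Gsk3b had 3 on chromosome 16.
Lrp6 oligo at chr6:134400440-134400499: caaaggaaacaggaaaagaaaggcatcact
Lrp6 oligo at chr6:134404723-134404782: atcgagcgcacgtcacgggagcctcctcaa
Gsk3b oligo at chr16:38241177-38241236: tgtgtacttatccttaggatttgaagactt
Gsk3b oligo at chr16:38246094-38246153: ctcattgtcaggcctaaaggttagatataa
Gsk3b oligo at chr16:38187987-38191632: gatcctgatacagctgtattaaaactctgt
The last of these spans 3646 bases of genome and so lies across an exon junction. Which exon or untranslated region the others fall in was not analysed here.

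Values below are log2 of the background-subtracted signal over the 75th percentile of its array, so that 0 is the level of that percentile. A floor of -2.71 was set for all arrays, and values at the floor have no order among themselves. This floor is the lowest well-above-background signal of control array B. On the other arrays that signal was lower, from -6.89 to -3.55. Genes were tested with limma, and a gene was called at an adjusted p under 0.1. The targeted genes were read first. Kat5, the gene of Tip60, was at 1.34 and 1.37 on the control arrays, 0.0008 and 0.0062 upon Tip60 KD, 1.52 and 1.53 upon Hdac6 KD, and -0.11 and 0.20 upon double KD. Hdac6 was at 2.21 and 2.18 on the control arrays, 1.74 and 1.77 upon Tip60 KD, -0.28 and -0.32 upon Hdac6 KD, and 0.30 and 0.34 upon double KD. Each target was thus lower in the groups that carry its hairpin. Hdac6 was also 0.739-fold the control level upon Tip60 KD (adjusted p = 0.00622, limma), and Hdac6 was left higher upon double KD than upon Hdac6 KD alone. Arrays differed in detection. Between 33 and 70 of the 71 Wnt features were well above background, fewest on control array B. There the median background subtracted was 114.32, against 37.25 to 89.01 on the knockdown arrays. Control array A had 61 subtracted and 60 features well above background, against 37.25 to 39.4 and 68 on the other A arrays. Each control array thus had the highest background subtracted and the lowest detection of its slide. The part of this in the changes of dim genes against control KD was not tested. All A arrays shared 1 slide and all B arrays the other, and the position on the slide cannot be told apart from the group.

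**Figure D1:**
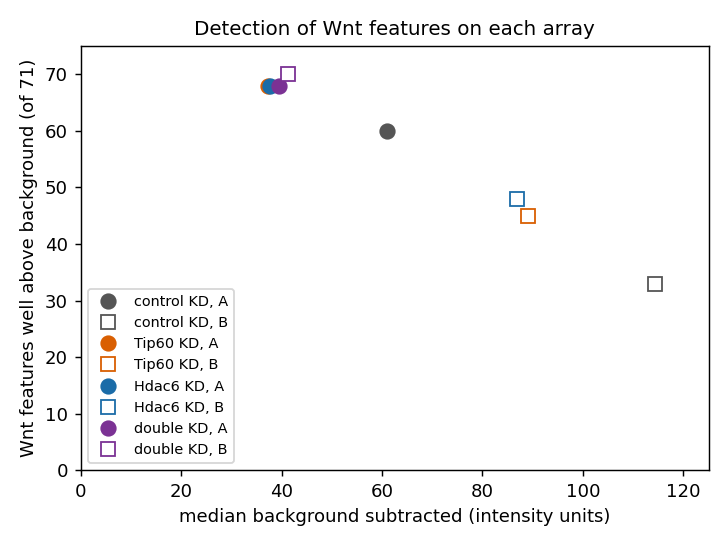
Number of Wnt features well above background on each array (vertical axis, of 71) against the median background that the scanner software subtracted on that array (horizontal axis, intensity units). Circles are A arrays and open squares B arrays; control array B sits lowest at 33, and the points of Tip60 KD A and Hdac6 KD A, both at 68, nearly coincide.

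Most of the ligand genes did not pass the filter for testing. To be tested, a gene needed a feature that exceeded both its local background mark and the floor on 2 or more arrays. Of the 53 genes, 35 passed, and the 18 that did not were Dkk1, Dkk2, Dkk4, Fzd1, Lef1, Tcf7l2, Wnt10a, Wnt11, Wnt16, Wnt2, Wnt2b, Wnt3, Wnt3a, Wnt5a, Wnt6, Wnt7a, Wnt8a and Wnt9a. At most 1 of their 22 features was above the floor on any array. Many were still well above local background, 15, 19, 19 and 19 of the 22 on the A arrays of control, Tip60, Hdac6 and double KD. On the B arrays these numbers were 0, 3, 5 and 21. Failing the filter, whose floor comes from control array B, is thus not absence of expression. Dkk1, a secreted Lrp5 and Lrp6 antagonist, was above the floor on 0 of 8 arrays. Lef1, a DNA-binding partner of beta-catenin, was above it on 1 array for 1 of its 2 features and on 0 for the other. Wnt9a stood at 0.191 and 0.167 of the 75th percentile on the control arrays, above the floor of 0.153, and between 0.0452 and 0.0952 on the 6 knockdown arrays. These values were not tested.

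Upon Tip60 KD, 14 of the 35 tested members (40%) were called, 8 higher and 6 lower. Of all 18116 genes tested, 39.7% were called, 19.7% higher and 20% lower, so the share among the Wnt genes was close to that of the array. The median change was 0.08 for the members and 0.06 for all genes. Upon Hdac6 KD, 14 members (40%) were called, 9 higher and 5 lower, beside 28.9% of all genes, 14% higher and 14.9% lower. Here the medians were 0.23 and 0.03. Upon double KD, 11 members (31.4%) were called, 7 higher and 4 lower, beside 32.8% of all genes, 15.9% higher and 16.9% lower, with medians of 0.30 and 0.05. These comparisons share the control arrays. With the slide as a block, 22 members were called upon Tip60 KD and 22 upon double KD, beside 60.8% and 55.4% of all genes.

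**Figure D2:**
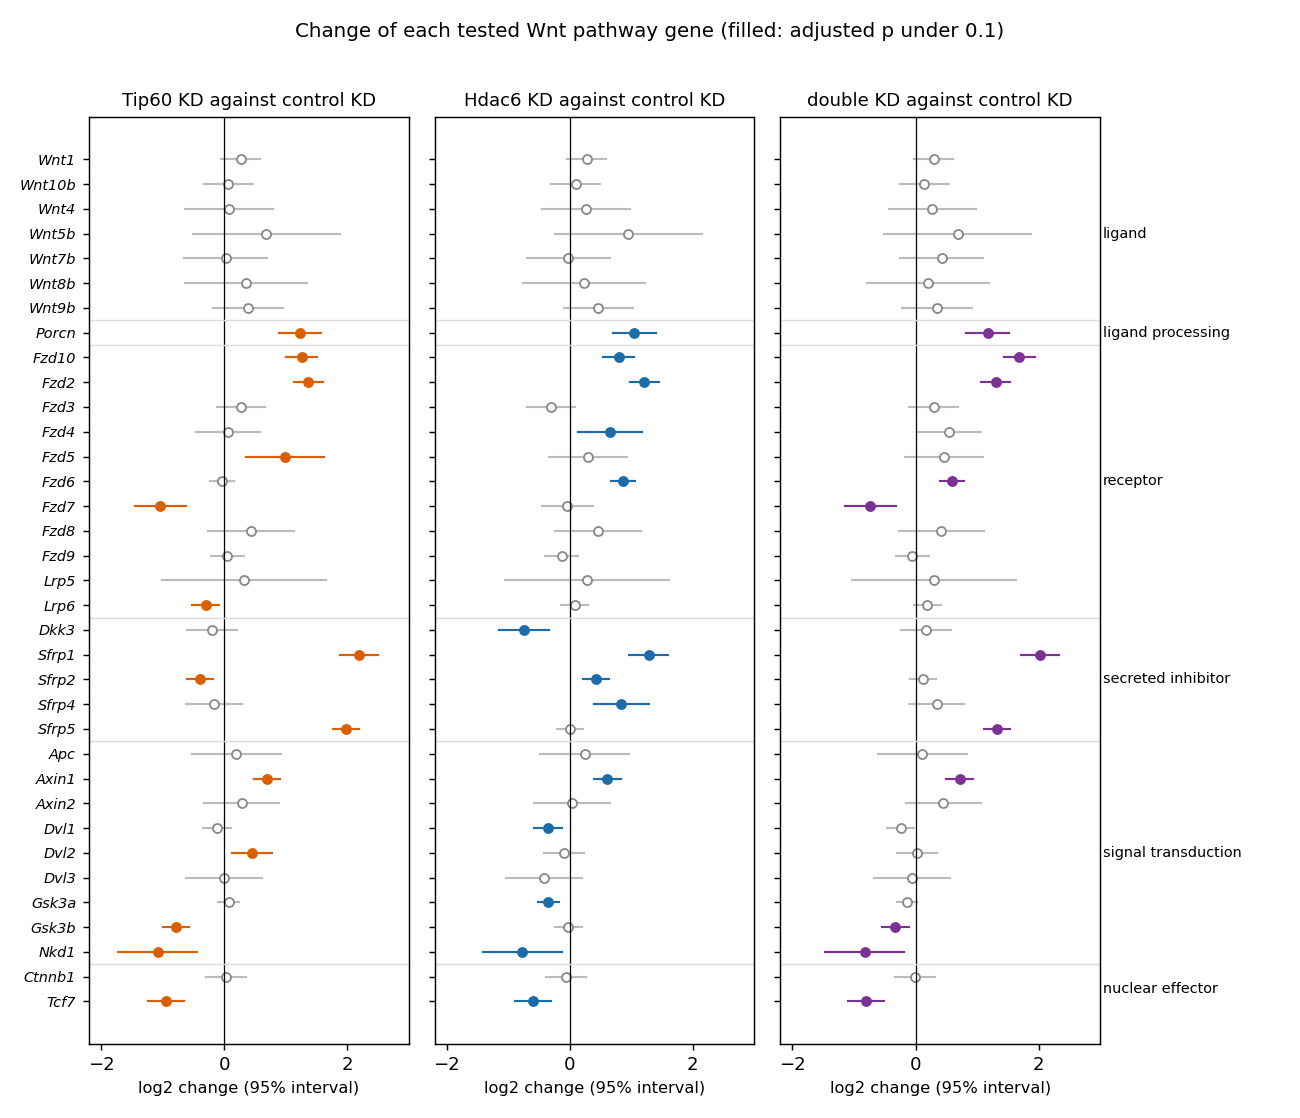
Log2 change against control KD with its 95% interval (horizontal axis) for each of the 35 tested members (vertical axis, grouped by role), in 1 panel per knockdown. Filled points passed an adjusted p under 0.1; Sfrp1, Fzd2, Fzd10, Porcn and Axin1 lie to the right of 0 in all 3 panels and Tcf7 to the left, while the 7 ligands are open in each panel.

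Among the ligands, 7 of 19 were tested and none was called by limma in any comparison with control KD, where 0 of 7 also passed at an unadjusted p under 0.05. Changes ran from 0.02 to 0.69 upon Tip60 KD, from -0.03 to 0.95 upon Hdac6 KD and from 0.14 to 0.69 upon double KD. The largest was that of Wnt5b, a ligand known mainly for beta-catenin-independent signalling. It was at -2.34 and -2.09 on the control arrays, -2.02 and -1.03 upon Tip60 KD, -1.88 and -0.64 upon Hdac6 KD, and -1.68 and -1.36 upon double KD. In every group the B array read higher than the A array, and the 95% interval of the change upon Hdac6 KD ran from -0.24 to 2.14. With the slide as a block, 4 ligands were called higher upon Tip60 KD, Wnt8b (0.36, adjusted p = 0.00303), Wnt5b (0.69, adjusted p = 0.0757), Wnt9b (0.39, adjusted p = 0.0955) and Wnt1 (0.27, adjusted p = 0.0962). Upon Hdac6 KD these were Wnt8b, Wnt5b and Wnt9b, and upon double KD Wnt8b, Wnt1 and Wnt5b. The other tested ligands were Wnt1, Wnt10b, Wnt4, Wnt7b, Wnt8b and Wnt9b. Of these, Wnt10b, Wnt4 and Wnt7b were at the floor on every A array, and Wnt7b also on both Hdac6 KD arrays. Wnt8b was at the floor on control array A. A change of these genes below the floor would not be seen.

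Porcn encodes the enzyme that attaches the lipid to Wnt proteins, and it rose in every knockdown. It was at 0.46 and 0.37 on the control arrays. It was at 1.76 and 1.52 upon Tip60 KD, 1.58 and 1.35 upon Hdac6 KD, and 1.70 and 1.46 upon double KD. No knockdown array overlapped the controls. The changes were 1.23 ± 0.14 (SE; adjusted p = 0.00231, limma), 1.05 ± 0.14 (adjusted p = 0.00696) and 1.17 ± 0.14 (adjusted p = 0.00419), or 2.34-, 2.07- and 2.25-fold. Tip60 KD and Hdac6 KD differed by 0.18, with a 95% interval of -0.17 to 0.52 (adjusted p = 0.515; 0.0831 with the slide as a block).

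Of the receptors and co-receptors, 11 of 12 were tested. Upon Tip60 KD 3 rose and 2 fell, upon Hdac6 KD 4 rose, and upon double KD 3 rose and 1 fell. These shares of 45.5%, 36.4% and 36.4% stand beside 39.7%, 28.9% and 32.8% of all genes. Fzd2 was near the floor in control KD, at -2.71 and -2.51. It was at -1.20 and -1.29 upon Tip60 KD, -1.41 and -1.39 upon Hdac6 KD, and -1.26 and -1.35 upon double KD. All knockdown arrays were above both controls, by 1.37 ± 0.10 (adjusted p = 0.000778, limma), 1.21 ± 0.10 (adjusted p = 0.00219) and 1.30 ± 0.10 (adjusted p = 0.00151). Control array A was at the floor, which enters these values, and a second Fzd2 feature was at the floor on all 8 arrays. With normexp background correction the change upon Tip60 KD was 0.90.

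Fzd10 rose most upon double KD. Its level was -0.99 and -0.98 on the control arrays, 0.37 and 0.19 upon Tip60 KD, -0.13 and -0.25 upon Hdac6 KD, and 0.78 and 0.62 upon double KD. The 4 groups did not overlap. The changes were 1.26 ± 0.10 (adjusted p = 0.00107), 0.80 ± 0.10 (adjusted p = 0.00628) and 1.68 ± 0.10 (adjusted p = 0.00115). Double KD exceeded Tip60 KD by 0.42 (adjusted p = 0.125; 0.0187 with the slide as a block).

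Fzd7, a Frizzled known for its expression in pluripotent cells, fell where Tip60 was knocked down. It was at 1.67 and 1.49 on the control arrays, 0.65 and 0.44 upon Tip60 KD, 1.69 and 1.39 upon Hdac6 KD, and 1.02 and 0.68 upon double KD. The Hdac6 KD arrays spanned the controls, and the Tip60 and double KD arrays lay below both. The change was -1.04 ± 0.17 upon Tip60 KD (adjusted p = 0.0067), -0.04 upon Hdac6 KD with an interval of -0.46 to 0.37, and -0.74 ± 0.17 upon double KD (adjusted p = 0.0277). The last call was lost without control array A or double KD array B. A second Fzd7 feature was at the floor on both control arrays, so a fall could not be seen on it.

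Fzd6 showed the other arrangement. It stood at -1.60 and -1.54 on the control arrays and at -1.65 and -1.55 upon Tip60 KD. It stood at -0.74 and -0.66 upon Hdac6 KD, and with both hairpins at -0.94 and -1.01. Both groups that carried the Hdac6 hairpin were above both groups without it. The change was 0.86 ± 0.08 upon Hdac6 KD (adjusted p = 0.00306) and 0.59 ± 0.08 upon double KD (adjusted p = 0.00603), against -0.03 upon Tip60 KD with an interval of -0.23 to 0.16.

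Fzd4 and Fzd5 were close to the floor. Fzd4 was at -2.34 and -2.71 on the control arrays, -2.21 and -2.71 upon Tip60 KD, -2.0 and -1.74 upon Hdac6 KD, and -2.06 and -1.91 upon double KD. Its rise of 0.65 ± 0.21 upon Hdac6 KD (adjusted p = 0.0844) was lost without any 1 of the control, Hdac6 KD or double KD arrays. Fzd5 was at the floor on both control arrays, at -1.77 and -1.68 upon Tip60 KD, at -2.71 and -2.12 upon Hdac6 KD, and at -2.55 and -1.95 upon double KD. With the controls at the floor, the rise of this feature upon Tip60 KD was at least 0.98 on this log2 scale. Over the alternative settings that gave a value, the Fzd5 change ran from 0.34 to 1.17. The call (adjusted p = 0.0331) was lost without any 1 of the control or Tip60 KD arrays, and a second Fzd5 feature read -0.30 with an adjusted p of 0.335. Fzd3, Fzd8, Fzd9 and the co-receptor Lrp5 were called in no comparison with control KD. With the slide as a block, Fzd8 was called in all 3 (0.43, 0.46 and 0.42), and so was Lrp5 (0.33, 0.28 and 0.30), while Fzd4 and Fzd5 were called upon double KD (0.54, adjusted p = 0.0779, and 0.46, adjusted p = 0.0804).

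The co-receptor gene Lrp6 could not be given a direction. The oligo that represents the gene, shown above at 134400440, was at -0.67 and -0.79 on the control arrays, -1.11 and -0.96 upon Tip60 KD, -0.66 and -0.64 upon Hdac6 KD, and -0.50 and -0.57 upon double KD. It fell by 0.30 upon Tip60 KD (adjusted p = 0.0504), a call lost without control array A or Tip60 KD array A. The other oligo, at 134404723, was at -2.04 and -1.88 on the control arrays, -1.29 and -1.20 upon Tip60 KD, -1.39 and -1.30 upon Hdac6 KD, and -1.16 and -1.05 upon double KD. It rose by 0.72 upon Tip60 KD, 0.61 upon Hdac6 KD and 0.85 upon double KD, with adjusted p of 0.00329, 0.00979 and 0.00341 in a limma fit of every feature. The 2 oligos thus moved in opposite directions upon Tip60 KD, and both differences were past the threshold. With the 2 averaged, the change upon Tip60 KD was 0.21 (adjusted p = 0.0836).

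Sfrp1, a secreted inhibitor, rose in each knockdown. Of the 8 secreted inhibitors, a group formed by name from the Sfrp and Dkk genes, 5 were tested. Upon Tip60 KD 2 rose and 1 fell, upon Hdac6 KD 3 rose and 1 fell, and upon double KD 2 rose. These shares of 60%, 80% and 40%, each of only 5 genes, stand beside 39.7%, 28.9% and 32.8% of all genes. Sfrp1, which binds Wnt proteins outside the cell, was at 0.56 and 0.48 on the control arrays, 2.72 and 2.71 upon Tip60 KD, 1.91 and 1.69 upon Hdac6 KD, and 2.69 and 2.40 upon double KD. Every knockdown array was above both controls, and the Hdac6 KD arrays lay between the controls and the other knockdowns. The changes were 2.20 ± 0.13 (4.58-fold, adjusted p = 0.000608, limma), 1.28 ± 0.13 (2.43-fold, adjusted p = 0.00336) and 2.03 ± 0.13 (4.08-fold, adjusted p = 0.00118).

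Sfrp5, a relative of Sfrp1, was at the floor on both control arrays and both Hdac6 KD arrays. It was at -0.65 and -0.82 upon Tip60 KD and at -1.35 and -1.42 upon double KD. Signal above the floor was therefore seen only in the groups with the Tip60 hairpin, and Sfrp5 passed the filter through these groups alone. On this scale it was at least 3.93-fold higher in Tip60 KD than in control KD (log2 1.98, adjusted p = 0.00051) and at least 2.50-fold higher in double KD (log2 1.32, adjusted p = 0.00122). The log2 change upon Tip60 KD ran from 1.49 to 2.19 over the alternative settings that gave a value.

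Sfrp4, Dkk3 and Sfrp2 were called upon Hdac6 KD and not upon double KD. Sfrp4 was at -1.76 and -2.11 on the control arrays, -2.16 and -2.05 upon Tip60 KD, -1.11 and -1.08 upon Hdac6 KD, and -1.82 and -1.36 upon double KD. Its rise upon Hdac6 KD was 0.84 ± 0.18 (adjusted p = 0.0272), and it was lost without control array B or either Hdac6 KD array. Dkk3, a divergent Dkk family member, was at -1.0 and -1.15 on the control arrays, -1.13 and -1.41 upon Tip60 KD, -1.68 and -1.95 upon Hdac6 KD, and -0.75 and -1.05 upon double KD. It fell by 0.74 upon Hdac6 KD (adjusted p = 0.0284), a call lost without control array A or Hdac6 KD array B. It was called upon Tip60 KD with the slide as a block (-0.20, adjusted p = 0.0441), and was 0.17 above control KD in double KD (adjusted p = 0.524; 0.0702 with the slide as a block). Sfrp2 changed less and in opposite directions, by -0.39 upon Tip60 KD (adjusted p = 0.019) and 0.42 upon Hdac6 KD (adjusted p = 0.0223). The second call was lost without control array B or Hdac6 KD array A.

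In these bulk samples, fewer cells of a type and less RNA per cell cannot be told apart. Markers of other cell types were read beside the inhibitors. All 8 ESC markers were tested, with a summed level between 280 and 300 times the 75th percentile on every array. Single markers did move. Upon Tip60 KD 3 (37.5%) were called higher, by up to 1.01, and upon Hdac6 KD 2 (25%) were called higher. Upon double KD 4 (50%) were called, 3 higher and 1 lower. These shares stand beside 39.7%, 28.9% and 32.8% of all genes. The fibroblast list had 4 of 7 markers tested, and its summed level was 1.93 to 2.05 on the control arrays, 2.62 to 3.07 upon Tip60 KD, 2.07 to 2.09 upon Hdac6 KD and 2.81 to 2.99 upon double KD. Within it Col1a1 rose by 0.98 and Thy1 by 0.47 upon Tip60 KD, the latter no longer called without control array B or Tip60 KD array A. The other tested markers, Col3a1 (0.19) and Lum (0.00), were not called, and Col1a2, Postn and Dcn did not pass the filter. The primitive streak list had 1 of 4 markers tested, Eomes, which rose by 0.84 upon Tip60 KD. The part of these shifts in the Wnt gene results was not tested.

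All 9 genes of signal transduction in the cytoplasm were tested. Axin1, the scaffold of the destruction complex, rose in each knockdown. It was at -0.40 and -0.41 on the control arrays, 0.32 and 0.26 upon Tip60 KD, 0.30 and 0.10 upon Hdac6 KD, and 0.30 and 0.32 upon double KD. All 6 knockdown arrays lay above the controls and close to one another. The changes were 0.70 (adjusted p = 0.00314), 0.61 (adjusted p = 0.0087) and 0.72 (adjusted p = 0.00454), each ± 0.09. Axin2, a scaffold and widely used pathway target, was at -2.19 and -2.71 on the control arrays, -2.05 and -2.29 upon Tip60 KD, -2.13 and -2.71 upon Hdac6 KD, and -1.92 and -2.08 upon double KD. It was not called. Its changes were 0.28 (adjusted p = 0.471; 0.0958 with the slide as a block), 0.03 (adjusted p = 0.971) and 0.45 (adjusted p = 0.26; 0.0259 with the slide as a block).

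Gsk3b, a kinase of the destruction complex, fell on the oligo that represents it, at 38241177. This oligo was at 0.87 and 0.80 on the control arrays, 0.09 and 0.01 upon Tip60 KD, 0.88 and 0.74 upon Hdac6 KD, and 0.55 and 0.46 upon double KD. Double KD lay between control and Tip60 KD, and Hdac6 KD overlapped the controls. The changes were -0.79 ± 0.09 (adjusted p = 0.00215), -0.02 (adjusted p = 0.897) and -0.33 ± 0.09 (adjusted p = 0.0437). The call upon double KD was lost without either control array or double KD array B. Upon Tip60 KD the oligo at 38246094 fell by 0.64 (adjusted p = 0.0092), and the junction oligo at 38187987 rose by 0.37 (adjusted p = 0.0857). The junction oligo was nearer the floor, at -1.79 and -2.13 on the control arrays and -1.51 and -1.67 upon Tip60 KD. With the features of a gene averaged, the change upon Tip60 KD was -0.35 (adjusted p = 0.042) and that upon double KD was -0.25 and not called, while the difference between Tip60 KD and Hdac6 KD dropped from -0.76 to -0.22 and was no longer called. The related Gsk3a was 0.35 lower upon Hdac6 KD (log2 -0.35, adjusted p = 0.0193), a call lost without Hdac6 KD array B.

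Nkd1, an inhibitor that binds Dishevelled, was at -1.76 and -0.91 on the control arrays, -2.48 and -2.35 upon Tip60 KD, -2.05 and -2.16 upon Hdac6 KD, and -2.15 and -2.16 upon double KD. All knockdown arrays were below both controls, but the controls lay far apart. The changes were -1.08 ± 0.26 (adjusted p = 0.0252), -0.77 ± 0.26 (adjusted p = 0.0927) and -0.82 ± 0.26 (adjusted p = 0.0719). Without control array B the change upon Tip60 KD was -0.66, and without control array A it was -1.51. Without control array B the change upon Hdac6 KD was -0.35 and was not called, and without control array A it was -1.20. Upon double KD these values were -0.40 and -1.24. The calls upon Hdac6 and double KD were lost under 14 and 11 of the 20 alternatives, among them leaving out any 1 knockdown array. The call upon Tip60 KD was lost without Tip60 KD array A. A second Nkd1 feature was at the floor on every array, so a fall could not be seen on it. Dvl2 was 0.45 higher upon Tip60 KD (adjusted p = 0.0481), a call lost without control array B or either Tip60 KD array. It was also lost with quantile normalization, in the authors' log2 table and with the features of a gene averaged. A second Dvl2 feature, near the floor, read 0.20 (adjusted p = 0.42). Dvl1 was 0.36 lower upon Hdac6 KD (log2 -0.36, adjusted p = 0.0421), a call lost without control array A or either Hdac6 KD array. With the slide as a block, Dvl1 (-0.24, adjusted p = 0.0319) and Gsk3a (-0.14, adjusted p = 0.0796) were also called lower upon double KD. Dvl3 and Apc were not called against control KD.

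Of the 4 nuclear effectors, Ctnnb1 and Tcf7 were tested. Ctnnb1 mRNA, which encodes beta-catenin, was at 5.49 and 5.15 on the control arrays, 5.41 and 5.29 upon Tip60 KD, 5.31 and 5.18 upon Hdac6 KD, and 5.35 and 5.27 upon double KD. The groups overlapped. The changes were 0.03, -0.07 and 0.00, with 95% intervals of -0.29 to 0.36, -0.39 to 0.26 and -0.33 to 0.32. The arrays say nothing of beta-catenin protein.

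Tcf7, which encodes the DNA-binding partner TCF1, was at 3.66 on both control arrays, 2.60 and 2.85 upon Tip60 KD, 2.99 and 3.13 upon Hdac6 KD, and 2.77 and 2.96 upon double KD. Every knockdown array was below the controls. The changes were -0.94 ± 0.12 (adjusted p = 0.00311), -0.60 ± 0.12 (adjusted p = 0.0205) and -0.80 ± 0.12 (adjusted p = 0.00758). A second Tcf7 feature moved the same way, by -0.40, -0.26 and -0.56. The call upon Hdac6 KD was lost without Hdac6 KD array A and in the authors' log2 table.

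**Figure D3:**
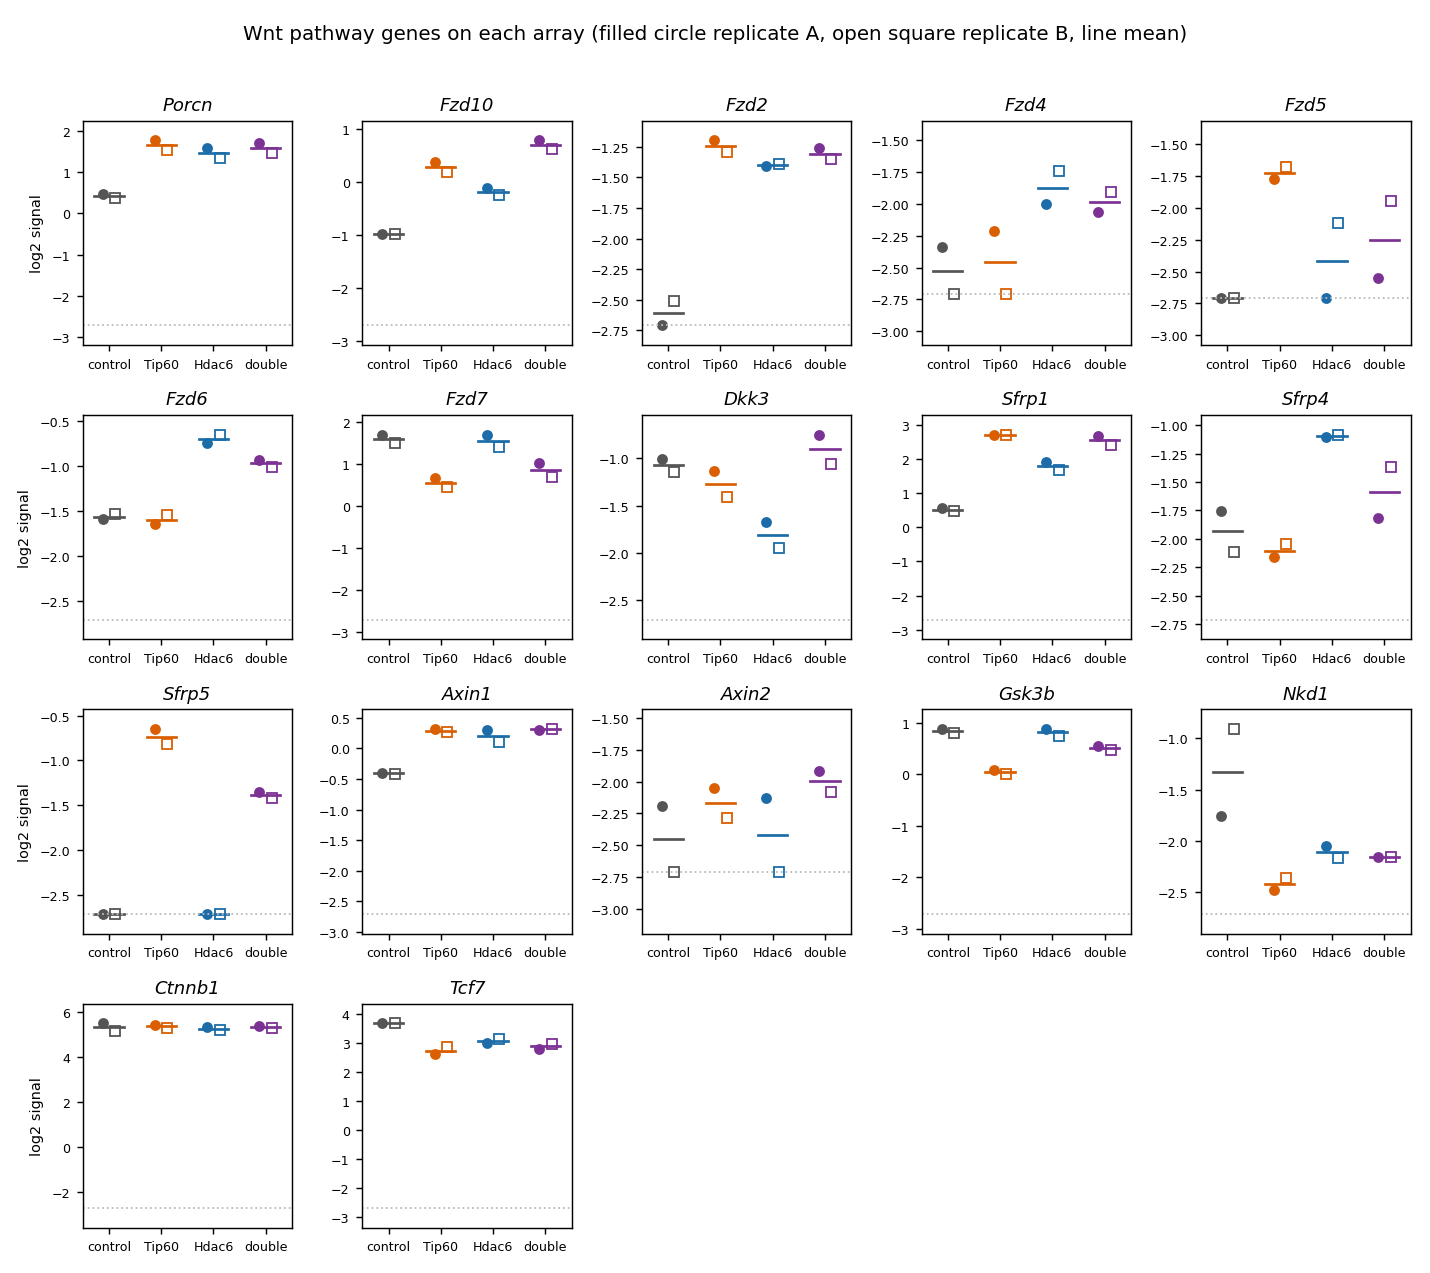
Log2 signal over the 75th percentile of the array (vertical axis, its own range in each panel) of 17 members in the 4 groups, with filled circles for A arrays, open squares for B arrays and a line at the mean; the dotted line is the floor at -2.71. Sfrp5 sits on the floor in control KD and Hdac6 KD, Fzd7 and Gsk3b are lowest in Tip60 KD, and Fzd6 is highest in Hdac6 KD.

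Setting Tip60 KD directly against Hdac6 KD, which shares no array, 13 of the 35 members (37.1%) were called, 7 higher and 6 lower in Tip60 KD. Of all genes, 23.5% were called, 12.2% higher and 11.3% lower. All 5 tested secreted inhibitors were among the 13. Of these, Sfrp5 passed the filter only through the groups with the Tip60 hairpin, so its entry to the test leaned on the difference tested here. On this scale Sfrp5 was higher in Tip60 KD by at least 1.98 (adjusted p = 0.000936), with 1.46 to 2.06 over the alternative settings that gave a value. Sfrp1 was higher by 0.91 (adjusted p = 0.00941) and Dkk3 by 0.54 (adjusted p = 0.0802). Sfrp4 was lower in Tip60 KD (-1.01, adjusted p = 0.0188), and so was Sfrp2 (-0.81, adjusted p = 0.00486). Among the receptors, Fzd3 (0.58, adjusted p = 0.0623) and Fzd10 (0.46, adjusted p = 0.0326) were higher in Tip60 KD. Fzd7 (-1.0, adjusted p = 0.0151), Fzd6 (-0.90, adjusted p = 0.00357) and the representing Lrp6 oligo (-0.38, adjusted p = 0.0409) were lower. In signal transduction, Dvl2 and Gsk3a were higher in Tip60 KD by 0.55 and 0.42, and Gsk3b was lower by 0.76 (log2 -0.76, adjusted p = 0.00587). Tcf7 differed by -0.34 (adjusted p = 0.12; 0.0185 with the slide as a block). Without Hdac6 KD array B, 8 members were called. The calls of Fzd10 and Lrp6 were lost without Tip60 KD array A or either Hdac6 KD array, and that of Dvl2 without any 1 of those 4 arrays. Dkk3 was also lost without any 1 of the 4 or a control array, and Fzd3 without either Tip60 KD array, Hdac6 KD array B or either double KD array. With the features of a gene averaged, the calls of Dvl2 and Lrp6 were lost, as was that of Gsk3b.

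**Figure D4:**
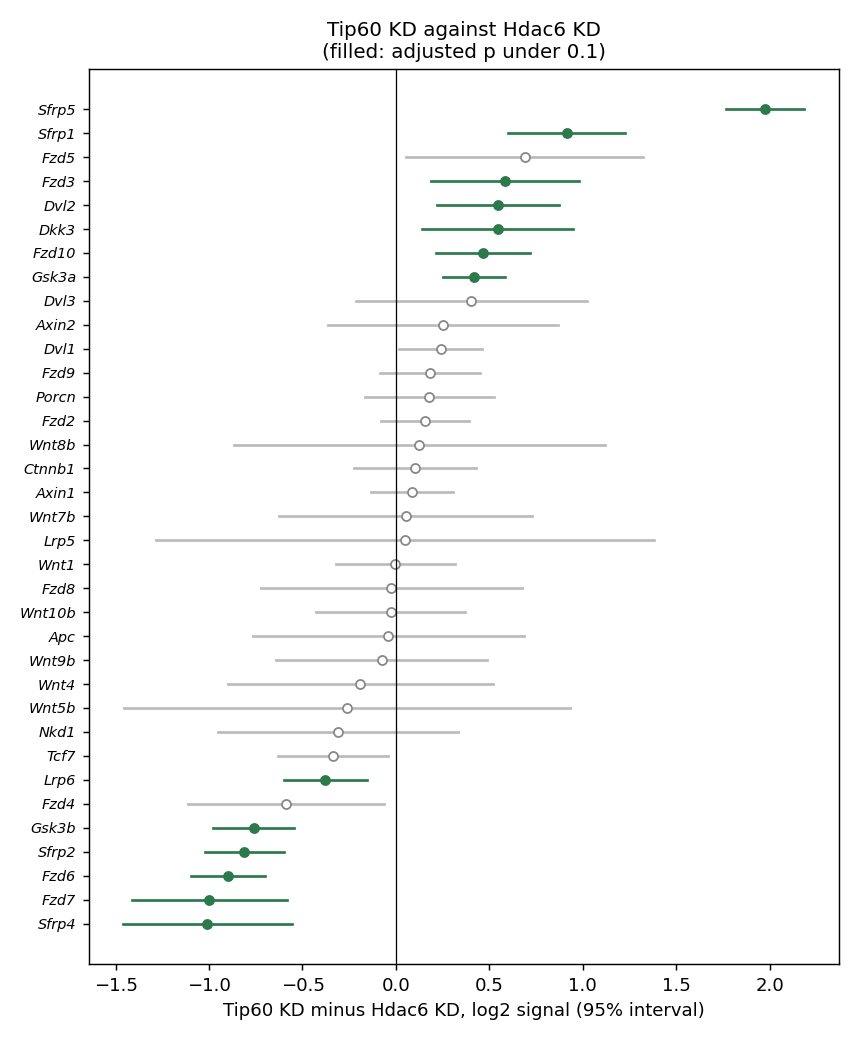
Difference between Tip60 KD and Hdac6 KD in log2 signal (horizontal axis, with 95% interval) for the 35 tested members, sorted by the difference; filled points passed an adjusted p under 0.1. Sfrp5 and Sfrp1 are the highest and Sfrp4 and Fzd7 the lowest.

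Between double KD and Tip60 KD, 5 members (14.3%) were called, 4 higher and 1 lower in double KD, beside 3.71% of all genes, 1.15% higher and 2.56% lower. Fzd6 was higher by 0.62 (adjusted p = 0.0553), Sfrp2 by 0.52 (adjusted p = 0.0742), the representing Lrp6 oligo by 0.49 (adjusted p = 0.0818) and Gsk3b by 0.46 (adjusted p = 0.0835). Sfrp5 was lower (-0.65, adjusted p = 0.0553). Without any 1 array of the 8, limma called 0 of these members, with 7 to 10 members at an unadjusted p under 0.05. Of all genes it then called 0, or 12 without Tip60 KD array B. With the slide as a block 10 members (beside 26.2% of all genes) were called. With the features of a gene averaged, the Gsk3b difference was 0.11 and not called.

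Whether the double KD equalled the sum of the single knockdowns was tested as an interaction, in which the control arrays enter with the opposite sign to the single knockdowns. It was called for 9 members (25.7%), 4 positive and 5 negative, beside 22% of all genes, 11.1% positive and 10.9% negative, and for 18 members with the slide as a block, where 47.1% of all genes were called. All 5 members that had risen in both single knockdowns were below the sum upon double KD, 4 of them called. They were picked by their rises over the control arrays, and the interaction subtracts these same rises. Noise in the arrays used for the choice thus favours values below the sum, so this count is no independent result. The interaction was -1.45 for Sfrp1 (adjusted p = 0.0106), -1.28 for Fzd2 (adjusted p = 0.00895), -1.11 for Porcn (adjusted p = 0.0224) and -0.59 for Axin1 (adjusted p = 0.0343). For Fzd10 it was -0.38 (adjusted p = 0.15; 0.0292 with the slide as a block). Tcf7, which had fallen in both, gave 0.74 (adjusted p = 0.0405), a call lost without either control array, Hdac6 KD array A or double KD array B. On the second Tcf7 feature it was 0.10 (adjusted p = 0.649). Sfrp5 was also among the 9, but it was at the floor in control KD and Hdac6 KD, so the sum could not be tested for it.

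Other genes of the pathway were read from a list of 65 more components, of which 51 were tested. Upon Tip60 KD 28 of them (54.9%) were called, 18 higher and 10 lower, beside 39.7% of all genes. Upon Hdac6 KD 20 (39.2%) were called, 12 higher and 8 lower, and upon double KD 24 (47.1%), 18 higher and 6 lower, beside 28.9% and 32.8% of all genes. Upon Tip60, Hdac6 and double KD in turn, the heparan sulphate proteoglycan gene Gpc4 changed by 2.08, 1.05 and 1.97, the second no longer called without control array B or Hdac6 KD array A. Its relative Gpc3 changed by -1.86, -0.98 and -1.31. Both are cell surface proteins that can bind Wnt, and they moved in opposite directions. Shisa2, which holds Frizzled proteins back in the endoplasmic reticulum, rose by 1.1, 1.26 and 1.36, and Rspo1, a secreted agonist, by 1.03, 0.82 and 1.09. Csnk1e, a kinase that acts on Dishevelled, fell (-1.17, -0.86 and -0.98). Tcf7l1, a repressor form of Tcf and the main one in ESCs, was at 0.71 and 0.44 on the control arrays, 1.25 and 0.97 upon Tip60 KD, 0.89 and 0.61 upon Hdac6 KD, and 1.21 and 0.96 upon double KD. It rose by 0.53 upon Tip60 KD (adjusted p = 0.0635) and by 0.52 upon double KD (adjusted p = 0.0823), with 0.18 upon Hdac6 KD (adjusted p = 0.551; 0.0358 with the slide as a block). Without control array B neither rise was called, nor the first without Tip60 KD array A, nor the second without control array A or either double KD array.

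A list of 19 genes known as targets of the pathway, 5 of them members, had 11 tested. Upon Tip60 KD 9 were called, 6 higher and 3 lower, upon Hdac6 KD 7, 4 higher and 3 lower, and upon double KD 9, 6 higher and 3 lower, where 39.7%, 28.9% and 32.8% of all genes were called. They did not move one way. Myc rose by 3.15, 1.96 and 3.08 in the same order, while Ascl2 fell (-1.12, -1.30 and -0.88), as did the members Tcf7 and Nkd1. Sp5, T, Cdx2, Lgr5, Znrf3, Rnf43, Lef1 and Dkk1 did not pass the filter.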

How the data were processed

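RNA of 8 samples was measured on 1-colour Agilent arrays. The scanner files, quantified by the authors with Feature Extraction (version 10.7.1.1 per the submitters' processing notes), hold deposited fluorescence intensity per spot, already background-subtracted but not scaled between arrays. The deposited table of log2 values, used as an alternative, had medians from 8.1871 to 8.2031 and correlated with the scanner log2 signals at 0.959 to 0.972. Its centring step was inferred from these medians. Spots marked as outliers were left out, spots of a feature averaged, and signals divided by the 75th percentile of the array, floored at 0.153 of it, and taken to log2. The feature with the highest mean represented each gene.

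Genes were fitted over all 4 groups with limma 3.58.1 in R 4.3.3 (eBayes, Benjamini-Hochberg over 18116 genes, adjusted p under 0.1), after tests on simulated data. Figures were drawn with matplotlib 3.10.9. The A arrays shared a slide and a scan, and so did the B arrays. Same-lettered arrays deviated together from their group means (6 correlations from 0.651 to 0.799), so the letters pair the arrays, and a fit with the slide as a block was an alternative. The methods call the arrays of a group biological replicates. Whether these were separate infections is not given in the sources used here, and p-values measure the spread between these arrays.

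The members and gene lists were chosen with earlier results of these data known. Members named with their values on every array were those called with a change of at least 0.5 in a knockdown, plus Ctnnb1, Axin2, Lef1, Tcf7, Dkk1 and Sfrp5. Wnt5b and Lrp6 were added after their values were seen. The other lists held further pathway genes, pathway targets, and markers of ESCs, fibroblasts, primitive endoderm, primitive streak, neural cells and trophectoderm. Of the marker lists not described in the report, 2 of 6 primitive endoderm and 4 of 4 neural markers were tested. None of these was called against control KD by limma at an adjusted p under 0.1. Of the trophectoderm markers 1 of 4 was tested, Krt7, which was at the floor on every knockdown array. On the log2 scale used here Krt7 fell by 0.52 or more, and by 0.43 under the alternative with the smallest fall. Probe positions are those of build mm9 in the scanner files. Alternatives were other background corrections, normalizations, floors, filters, probe rules, thresholds and arrays left out.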

Additional observations from a re-analysis of the deposited data

Results flagged for a closer look

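An interaction, a difference of the double KD from the sum of the single knockdowns, was called by limma for 8 named members. Among all tested members 9 of 35 (25.7%) were called, beside 22% of all genes. The 8 were picked by changes against the same control arrays, and the interaction subtracts these changes. This count is thus no independent result. Hdac6 itself fell less upon double KD than upon Hdac6 KD (-1.87 against -2.49), and the part of this in the interactions was not tested. The interaction was negative for Sfrp1 (-1.45), Fzd2 (-1.28), Porcn (-1.11), Sfrp5 (-0.65, adjusted p = 0.024) and Axin1 (-0.59). It was positive for Dkk3 (1.11, adjusted p = 0.0327), Tcf7 (0.74) and Gsk3b (0.48, adjusted p = 0.0551). For Sfrp5 the control KD and Hdac6 KD arrays were at the floor, so its value is the difference between double KD and Tip60 KD. Whether its double KD equalled the sum could therefore not be tested. The Sfrp5 call was lost with quantile normalization and in the authors' log2 table. With the features of a gene averaged, the Gsk3b value was 0.24 and not called. On the second Tcf7 feature the interaction was 0.10 (adjusted p = 0.649). The call of Dkk3 was lost without control array A or Hdac6 KD array B, that of Tcf7 without either control array, Hdac6 KD array A or double KD array B, and that of Gsk3b without either control array, array A of double KD, either Tip60 KD array or array B of Hdac6 KD. With 22% of all genes called in this test, a call is common on these arrays.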

How the results depend on the processing

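Of the changes called, only 2 of Lrp6 turned direction under any of the 20 alternatives. With the features of a gene averaged, Lrp6 was 0.21 above control KD upon Tip60 KD, and its interaction was -0.031. The calls of Axin1, Fzd10, Fzd2, Porcn and Sfrp1 against control KD held in all 3 knockdowns under every alternative that gave a value, while those of Fzd4, Fzd5, Nkd1, Dkk3 and Sfrp4 did not. With the slide as a replicate block, the numbers of members called were 22 upon Tip60 KD and 22 upon double KD, 19 upon Hdac6 KD, 18 for Tip60 KD against Hdac6 KD, 10 when double KD was set against Tip60 KD and 18 in the interaction, against 14, 11, 14, 13, 5 and 9 without it. In the same order the block called 60.8%, 55.4%, 52.9%, 41.5%, 26.2% and 47.1% of all genes. In the authors' log2 table, 9 members were called upon Hdac6 KD, beside 22.3% of all genes. Between double KD and Tip60 KD 1 was called, beside 0.613%. The latter count was 2 with normexp correction, 2 with a low floor and 3 with the features of a gene averaged. Beside these stood 2.88%, 1.55% and 3.99% of all genes. By limma the count was 0 with only the arrays compared (7 at an unadjusted p under 0.05), where 0 of all genes were called. At an adjusted p under 0.05 it was 0 (9 at an unadjusted p under 0.05), beside 0.359% of all genes. Leaving out 1 array at a time gave 10 to 14 members upon Tip60 KD, 8 to 13 upon Hdac6 KD, 8 to 12 upon double KD, 8 to 13 for Tip60 KD against Hdac6 KD, 6 to 8 in the interaction and 0 to 0 for double KD against Tip60 KD (7 to 10 at an unadjusted p under 0.05), where 0 to 12 of all genes were called. An arm left with 1 array was assumed to vary like the other groups. The cause of these shifts was not tested. Dim genes limit the rest: 8.86% of values were at the floor.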
